A study of Mus musculus with 15 samples.

Results

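Bone morphogenetic protein (BMP) signalling was examined in 10 genes that span the pathway: the ligands Bmp2, Bmp4 and Bmp6, the receptors Bmpr1a and Bmpr2, the intracellular mediators Smad1 and Smad6, and the target genes Id1, Id2 and Id3. Every probe set that the platform annotation assigns to 1 of these symbols alone was taken, which gave 21 of the 45101 probe sets on the array. The probe sets were taken by gene name, without a rule on their signals, but the genes were chosen with earlier results of these data known. The samples were whole hearts of male mice, 1 array each, all labelled 10 weeks: 8 of control animals and 7 of Lmna H222P heterozygous animals, in which 1 allele encodes lamins A and C with an amino acid substitution found in patients with Emery-Dreifuss muscular dystrophy, which affects the heart. The labels give no strain, litter or further allele, and nothing that all the animals share beyond sex, age and tissue. Because nothing states how the hearts were batched, the p-values measure only the spread between these samples.

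BMPs are secreted dimers that bring together type I receptors, such as Bmpr1a, and type II receptors, such as Bmpr2. The type I receptor kinase then phosphorylates Smad1, Smad5 and Smad9, which enter the nucleus with Smad4 and switch on targets that include the Id genes and Smad6. Id proteins lack a DNA-binding region and hold other helix-loop-helix factors off DNA, and Smad6 feeds back on the receptors as an inhibitor. In the heart the pathway is known for its part in forming the valves, the chambers and the atrioventricular canal, and in the adult heart Id1, Id3 and Bmp6 are known from endothelial cells.

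The start regions of the target genes Id2, Id3 and Smad6 show the sequence on which SMAD complexes could act in genes whose transcripts were measured here. Promoters came from RefSeq, build GRCm38.p6, and 8 of the 10 genes had an entry, all except Id1 and Bmp2. Each is printed 5′ to 3′ on the gene's own strand from 250 bases before to 30 bases after the start, with capitals for the GC-rich SMAD1/5 motif GGCGCC and for the SMAD palindrome GTCTAGAC. The windows are chr12:25096063-25096342 on the minus strand for Id2, chr4:136143572-136143851 on the plus strand for Id3 and chr9:64022030-64022309 on the minus strand for Smad6.
Id2: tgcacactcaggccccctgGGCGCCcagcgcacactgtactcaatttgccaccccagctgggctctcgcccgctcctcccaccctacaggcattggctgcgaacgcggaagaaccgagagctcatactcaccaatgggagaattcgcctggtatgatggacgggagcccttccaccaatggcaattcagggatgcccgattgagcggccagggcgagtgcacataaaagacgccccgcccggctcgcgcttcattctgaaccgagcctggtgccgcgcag
Id3: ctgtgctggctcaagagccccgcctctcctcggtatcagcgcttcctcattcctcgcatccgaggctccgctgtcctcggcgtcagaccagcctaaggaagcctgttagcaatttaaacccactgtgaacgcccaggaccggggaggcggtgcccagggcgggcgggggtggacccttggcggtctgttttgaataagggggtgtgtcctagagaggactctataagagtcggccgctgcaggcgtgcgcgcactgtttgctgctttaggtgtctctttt
Smad6: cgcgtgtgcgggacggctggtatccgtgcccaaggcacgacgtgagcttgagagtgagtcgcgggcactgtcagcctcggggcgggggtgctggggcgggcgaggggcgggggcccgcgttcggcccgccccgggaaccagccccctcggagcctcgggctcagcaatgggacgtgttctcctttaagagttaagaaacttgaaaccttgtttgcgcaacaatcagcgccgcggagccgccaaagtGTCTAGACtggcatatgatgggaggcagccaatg

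Both motifs read the same on either strand and cannot overlap each other. GGCGCC occurred in 3 of the 8 member promoters, those of Id2, Bmpr1a and Bmpr2, and in 10.9% of all 32851 promoter windows of that length. The motif holds only G and C, which made up 62.9%, 78.6% and 62.1% of those 3 windows, beside a median of 52.5% over all promoters. In Id2 GGCGCC began 231 bases before the start. GTCTAGAC occurred in Smad6 alone among the 8, and in 0.192% of all windows. It began 4 bases before the start used for that window, so that it spans that start. The RefSeq bounds of Smad6 reach further 5′, to chr9:64022085, and the motif lies downstream of that position. The Id3 window held neither set of letters, which says nothing about the factor. Such a match is a description of the letters only.

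The comparison asked whether transcripts of the BMP pathway differ in hearts in which 1 Lmna allele carries the substitution. Id2 had the clearest higher signal, 2.10-fold above control in its brightest probe set, and 1 of the 5 tested probe sets of the receptor gene Bmpr1a stood at 0.492 of control while the brightest did not differ beyond its error. Id3 stood at 1.35-fold, the weakly detected ligand gene Bmp2 at 2.77-fold and Id1 at 0.905 of control. None of these passed the test over all probe sets. Of the 21 member probe sets, 20 passed the filter on low signals, a log2 signal above 4 on at least 7 of the 15 arrays, and 0 of the 20 passed limma's test at an adjusted p of 0.05 (Benjamini-Hochberg over all probe sets), against 0.252% of the 38870 probe sets tested. At an unadjusted p under 0.05 there were 4 of 20 member probe sets, 3 higher and 1 lower in heterozygous hearts, a share of 20% beside 14.6% of all tested probe sets, of which 4.44% were higher and 10.1% lower. In no member probe set were the groups free of overlap, as they were in 0.468% of all tested probe sets. The median difference over the 20 was 0.12 (log2), beside -0.11 over all tested probe sets.

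**Figure D1:**
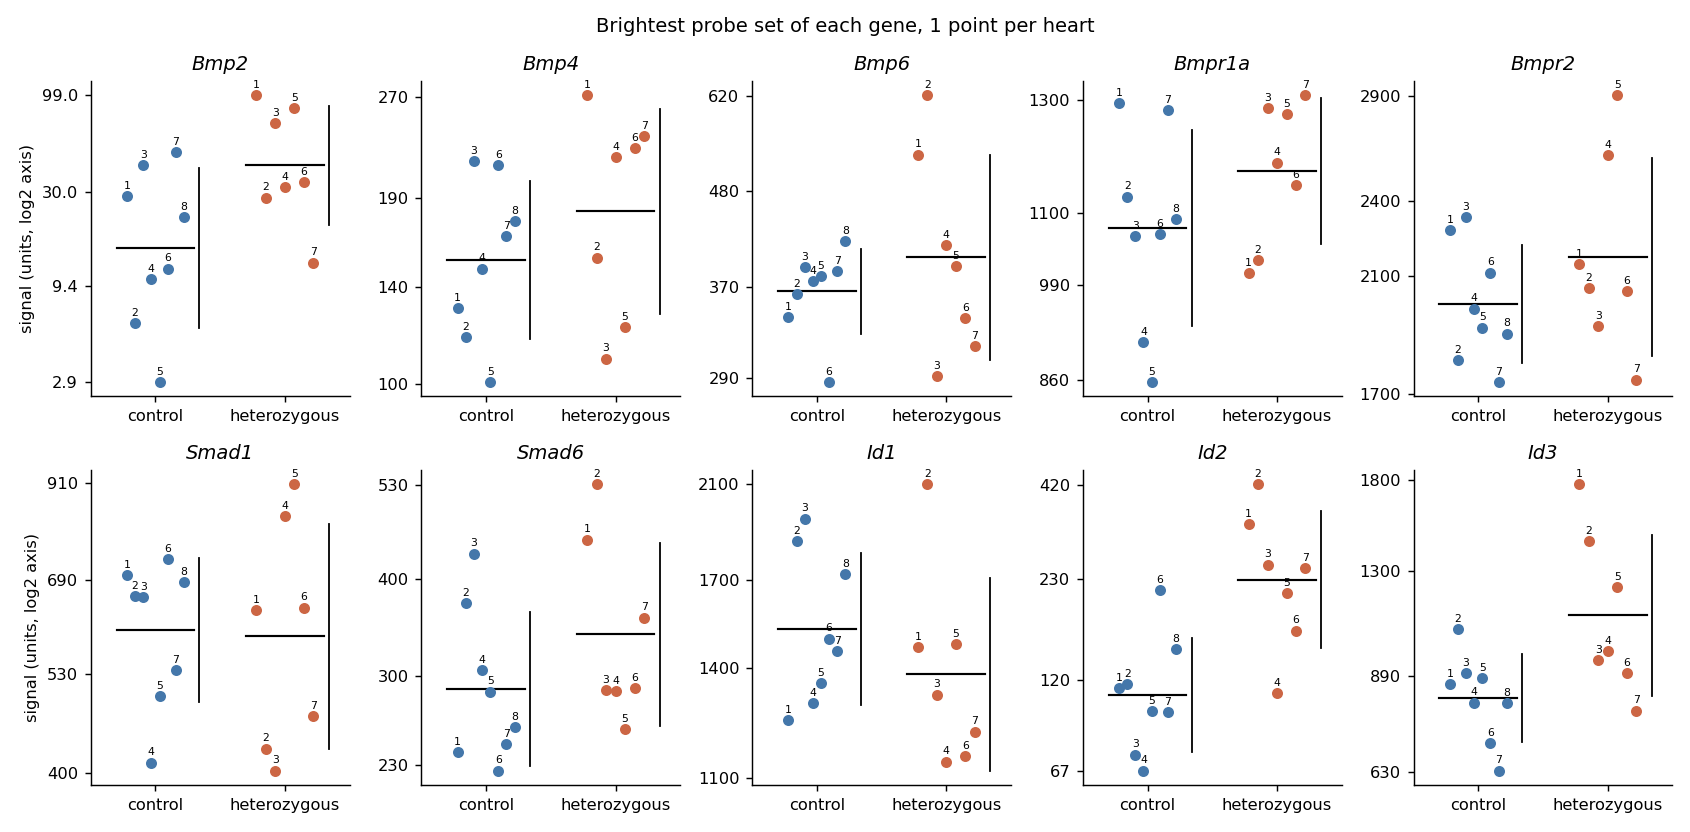
Signal of the brightest probe set of each of the 10 genes (y axis, signal units on a log2 axis with its own range in each panel) in 8 control and 7 heterozygous hearts, numbered as in the titles. Horizontal lines are geometric means and vertical lines 1 SD of the log2 values on each side; all 7 heterozygous hearts lie above the control median of 106.05 units in Id2, and the groups overlap in every panel.

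Array signals have no count behind them, so the number of arrays limits the precision, and array medians of 56.7 to 94.2 units give a scale for what is weak. Trimmed means were equal on all arrays, but array medians were lower in several heterozygous hearts, so the typical probe set lay 0.11 (log2) lower in heterozygous hearts on the deposited scale and 0.10 higher with arrays centred on their medians. Over the whole array the deposited scale gave 98 calls, 35 higher and 63 lower. Centring gave 65 calls, 51 higher and 14 lower, and quantile normalization 65, 37 higher and 28 lower. Ventricular muscle transcripts that define the labelled tissue were bright, with summed signals of 8 markers from 121664.8 to 355267.3 units in control and from 97365.0 to 243719.0 units in heterozygous hearts. A whole-heart sample mixes cell types, so fewer cells of a type and less RNA per cell cannot be told apart.

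Among the ligands, Bmp2, which takes part in patterning the atrioventricular canal, was measured near the bottom of the signal range. Its signals ran from 2.9 to 48.9 units (median 16.85) in control and from 12.6 to 98.6 units (median 33.8) in heterozygous hearts. The 3 heterozygous hearts numbered 1, 3 and 5 lay above every control, and the other 4 fell among the controls. The difference of 1.47 (log2) had a 95% interval from 0.17 to 2.77 and limma's adjusted p = 0.292. With all signals under a log2 of 6 raised to 6 the difference shrank to 0.16, so it rests on signals below that level.

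Bmp4, a ligand expressed in the embryonic outflow tract and in mesenchyme, ran from 100.8 to 216.3 units (median 157.9) in control and from 109.2 to 271.2 units (median 219.1) in heterozygous hearts. The 4 heterozygous hearts numbered 1, 4, 6 and 7 were above every control. The other 3 were below the control median, so the heterozygous hearts did not all lie on 1 side of it. Its difference was 0.24 (log2; 95% interval -0.26 to 0.75). Bmp6, a ligand of endothelial cells that also sets hepcidin levels in the liver, ran from 286.7 to 419.2 units (median 379) in control and from 291.4 to 621.3 units (median 392) in heterozygous hearts. Heterozygous hearts 1 and 2 alone exceeded the controls, at 529.5 and 621.3 units. The difference of 0.13 (log2; 95% interval -0.23 to 0.50) became -0.07 without these 2 arrays, a choice made after seeing the data.

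The receptor genes gave a mixed reading between probe sets. Bmpr1a encodes the type I receptor ALK3, which heart development requires. Its brightest probe set, 1425492_at, ran from 857.7 to 1294.4 units (median 1078.45) in control and from 1006.8 to 1309.3 units (median 1185.7) in heterozygous hearts, a difference of 0.12 (log2; 95% interval -0.16 to 0.40). The dimmest tested probe set of the gene, 1451729_at, ran from 124.5 to 261.2 units (median 170.2) in control and from 53 to 156.8 units (median 79.8) in heterozygous hearts. In that probe set 6 of 7 heterozygous hearts lay below every control, and heterozygous heart 3, at 156.8 units, was the exception. The difference was -1.02 (log2; SE 0.223, 95% interval -1.50 to -0.55), with an unadjusted p of 0.000344 and limma's adjusted p = 0.0749. Without heterozygous array 3 the adjusted p was 0.0414 in the same limma test, and over 28 alternative settings it ranged from 0.0288 to 1, under 0.05 in 4, always with a lower signal in heterozygous hearts.

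The other 3 tested probe sets of Bmpr1a lay at log2 differences of -0.22, 0.19 and -0.27, each with an interval that includes 0. The sixth, 1445413_at, failed the filter, at 3.9 to 15.6 units in control and 1.8 to 8.8 units in heterozygous hearts. All but 1445413_at cite the same GenBank record in the annotation, so they are not independent measurements of separate transcripts, and the annotation does not say which part of the transcript each covers. The mean of the 5 tested probe sets differed by -0.24 (log2; limma's adjusted p = 0.432), the opposite sign to the brightest. The level of Bmpr1a therefore depended on the probe set, and no single direction is given for the gene.

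Bmpr2, the type II receptor whose loss is known from pulmonary arterial hypertension, ran from 1736.8 to 2332.3 units (median 1947.4) in control and from 1743.7 to 2903 units (median 2054.6) in heterozygous hearts. Heterozygous hearts 4 and 5 stood above the rest at 2607.9 and 2903 units. The difference of 0.12 (log2) had a 95% interval from -0.17 to 0.41, and the other probe sets lay at -0.12 and -0.21, with intervals that include 0.

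**Figure D2:**
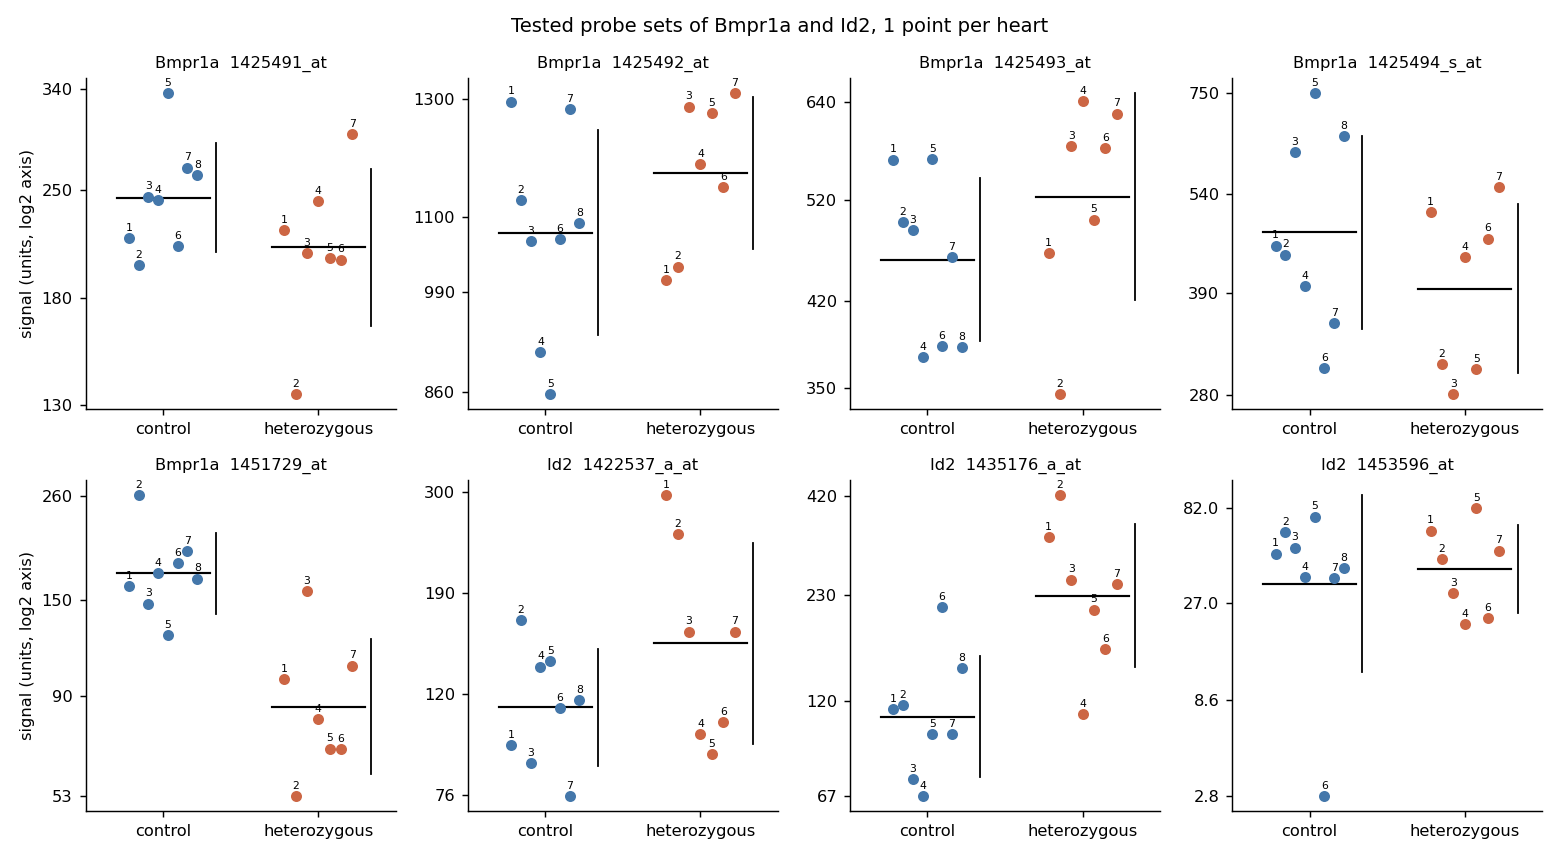
Signals (y axis, units on a log2 axis with its own range in each panel) of the 5 tested probe sets of Bmpr1a and the 3 of Id2 in each numbered heart, with geometric means and 1 SD of the log2 values on each side. In Bmpr1a 1451729_at 6 of 7 heterozygous hearts lie below every control, while in 1425492_at the groups cover nearly the same range; Id2 1435176_a_at shows 4 of 7 heterozygous hearts above every control.

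Smad1, a SMAD that the BMP receptors phosphorylate, did not differ beyond its error in any of its 3 probe sets. The brightest, 1459843_s_at, ran from 411.8 to 733 units (median 659) in control and from 402.6 to 906.8 units (median 634) in heterozygous hearts. Both ends of the heterozygous range lay outside the control range, with hearts 4 and 5 high and heart 3 low. The 3 differences were -0.03, 0.03 and -0.31 (log2), and the interval of the brightest, -0.46 to 0.41, excludes a change of that transcript by 1 (log2) in either direction. Smad6, the inhibitory SMAD that BMP signals induce in endothelial cells, ran from 226.1 to 431.9 units (median 272) in control and from 255.8 to 531.7 units (median 289.5) in heterozygous hearts. Heterozygous hearts 1 and 2 were again the highest, at 450.6 and 531.7 units, above all controls. The difference of 0.24 (log2; 95% interval -0.18 to 0.66) was 0.03 without these 2 arrays.

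Id1, a common readout of BMP receptor activity in endothelium, was bright in every heart. It ran from 1249.1 to 1944.6 units (median 1474.5) in control and from 1140.8 to 2098.4 units (median 1321.4) in heterozygous hearts. Hearts 4, 6 and 7 of the heterozygous group lay below every control and heart 2 lay above every control. The difference of -0.14 (log2; SE 0.162, 95% interval -0.49 to 0.20) had limma's adjusted p = 0.720 and changed sign, to 0.06, when arrays were centred on their medians.

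Id2, a helix-loop-helix inhibitor known from the cardiac conduction system and from neural crest, had 3 tested probe sets. In the brightest, 1435176_a_at, control hearts ran from 67.1 to 213.4 units (median 106.05) and heterozygous hearts from 110.6 to 422.6 units (median 245.7). The 4 heterozygous hearts numbered 1, 2, 3 and 7 were above every control, and heart 4 was close to the control median. Its mean log2 signal was 6.77 ± 0.53 (SD, n = 8) for the controls and 7.84 ± 0.63 (SD, n = 7) for the heterozygous hearts, a difference of 1.07 (SE 0.295, 95% interval 0.44 to 1.70) with limma's adjusted p = 0.146. The unadjusted p was 0.00246, rank 655 among the 38870 probe sets.

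The other Id2 probe sets had smaller differences above 0, with intervals that include 0. In 1422537_a_at control hearts ran from 75.6 to 167.7 units and heterozygous hearts from 91.5 to 296 units, a difference of 0.42 (log2; 95% interval -0.16 to 1.00) that was 0.08 without heterozygous arrays 1 and 2. In the weakest, 1453596_at, the difference was 0.25 (log2; 95% interval -1.01 to 1.50). Across 29 alternatives the difference of the brightest probe set stayed above 0, between 0.58 and 1.54, and limma's adjusted p ranged from 0.0612 to 1. Without heterozygous arrays 1 and 2 it was 0.79.

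Atrial muscle markers also differed between the groups. Of 11 tested atrial markers 8 were higher in heterozygous hearts in the brightest probe set. Past the threshold were 3, Sln, Myl7 and Myl4, and no marker was at 0. The 3 lower markers were Kcna5 (0.651 of control), Bmp10 (0.569) and Clu (0.953). Kcna5 had 6 of 7 heterozygous hearts below every control (limma's unadjusted p = 0.00588). Other tested probe sets lay at -0.94 for Sln, -0.07 for Myl4 and 1.61 for Dkk3 (log2). They ran from -0.09 to 0.33 for Nr2f2. Summed signals of the 11 markers ran from 16398.5 to 24148.3 units in control and from 20697.7 to 53508.8 units in heterozygous hearts. Control heart 6, with the highest atrial marker mean of the controls (9.08 in log2, against 7.70 to 8.29 in the other 7), also had the highest control signal of Id2, 213.4 units. Heterozygous heart 5 had the highest atrial mean of all, 10.40, with an Id2 signal of 209.7 units that was below the group median. With the atrial mean as a covariate the difference of the brightest Id2 probe set was 1.09 (log2), with limma's unadjusted p = 0.115 and adjusted p = 0.698. In the same fit it was 1.30 for 1422537_a_at and 2.61 for 1453596_at. Control heart 6 read only 2.8 units in 1453596_at, and the next lowest control 36.1 units. Without control array 6, and with no covariate, the difference of 1453596_at was -0.27. The atrial fit was not run without that array. Control heart 6 alone among the controls reached the lowest atrial mean of the heterozygous hearts, 9.02 in heart 1. The atrial fit therefore separates genotype from atrial signal poorly, and the part of atrial tissue in the Id2 signal was not tested.

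Id3, which acts beside Id1 in endothelial cells, ran from 633.5 to 1054.1 units (median 836) in control and from 786.3 to 1776.4 units (median 974.5) in heterozygous hearts. Hearts 1, 2 and 5 of the heterozygous group exceeded every control and the other 4 lay within the control range. The difference was 0.43 (log2; SE 0.185, 95% interval 0.04 to 0.82), with limma's adjusted p = 0.306, and 0.22 without heterozygous arrays 1 and 2. Of 10 tested endothelial markers 8 were higher in heterozygous hearts in the brightest probe set, and 0 passed in limma's adjusted test. At an unadjusted p under 0.05 there were 3: Vwf (1.64-fold) and the VEGF receptor genes Kdr (1.46-fold) and Flt1 (1.33-fold). Other tested probe sets ran from -0.15 to 0.57 for Flt1 and from -0.11 to 0.29 for Egfl7 (log2). That of Cdh5 lay at -0.89 (log2), while its brightest stood at 1.09-fold. The rest of the markers ran from 0.847 of control (Tie1) to 1.19-fold (Tek), with Pecam1 at 1.01-fold. Summed signals of the 10 markers ran from 6398.3 to 7164.5 units in control and from 6660.8 to 9981.0 units in heterozygous hearts, and none was at 0. With the endothelial mean as a covariate the difference of Id3 was 0.46 and that of Id2 1.49 (log2).

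**Figure D3:**
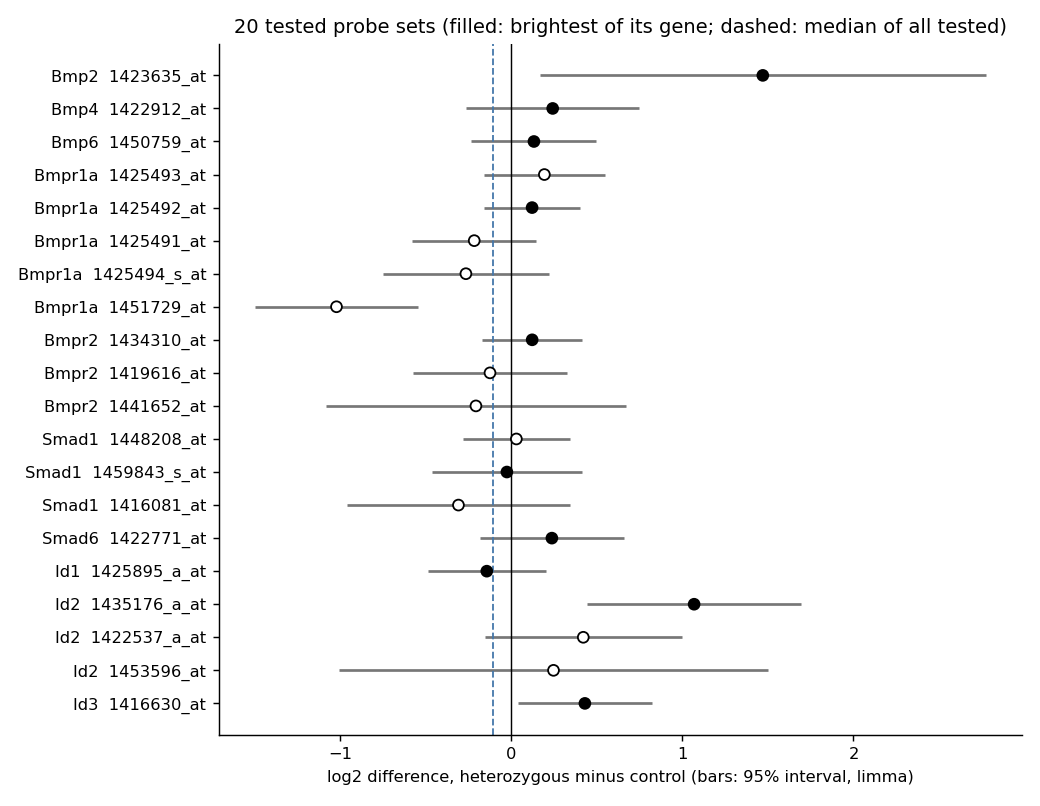
Log2 difference of heterozygous minus control (x axis) with its 95% interval from limma for each of the 20 tested probe sets (rows), filled for the brightest probe set of its gene. The dashed line marks the median of all tested probe sets, -0.11; 4 intervals exclude 0, those of Bmp2, Bmpr1a 1451729_at, Id2 1435176_a_at and Id3.

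Other cell type markers differed between the groups as well, and their part in the BMP and Id signals was not tested except as covariates. As in all marker lists, the brightest probe set stood for each gene. All 8 fibroblast markers were higher in heterozygous hearts on that reading. Their summed signals ran from 13284.2 to 17709.6 units in control and from 18803.7 to 30349.6 units in heterozygous hearts. Of these 8, 0 passed in limma's adjusted test and 4 had an unadjusted p under 0.05. Other tested probe sets lay below 0 for Dcn (-0.47), Col1a1 (-0.52), Pdgfra (-0.38 to -0.18), Tcf21 (-0.49) and Ddr2 (-0.56, all log2). They lay above 0 for Col1a2 (0.24 to 0.69) and Col3a1 (0.19). All 7 erythroid and platelet markers were lower, 2 of them past the threshold, at 3597.1 to 4418.3 units against 1790.2 to 3417.4 units in sum. Of 6 smooth muscle and pericyte markers 5 were higher and of 7 macrophage markers 4, with 0 past the threshold in either list. Limma's unadjusted p was under 0.05 for 4 higher smooth muscle and pericyte markers and 1 lower, and for 1 higher macrophage marker. The lower was Rgs5, at 0.743 of control, with 6 of 7 heterozygous hearts below every control. Other tested probe sets ran from -1.55 to 0.95 for Acta2 and from -1.16 to 0.17 for Rgs5, and lay at 0.22 for Notch3 (log2). No marker of these lists was at 0 on any array. With the fibroblast mean as a covariate, chosen after seeing the data, the difference of Id2 was 1.54 and that of Id3 0.53 (log2).

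Signals of 6 pairs among Id1, Id2, Id3, Smad6 and Bmp6 were compared heart by heart. After each group's mean was removed, log2 signals of Id1 and Smad6 had a Pearson r of 0.69 over 15 arrays (permutation p = 0.00483, adjusted p = 0.0290 over 6 pairs) and a Spearman rho of 0.48 (permutation p = 0.0736, adjusted p = 0.105). Among the 8 controls r was 0.66 and among the 7 heterozygous hearts 0.72. Without control array 3 and heterozygous array 2, the arrays farthest from the median in Id1, r was 0.35. The size of r therefore depends on those arrays, and leaving them out also narrows the range of Id1. Id3 and Smad6 had r = 0.62 (permutation p = 0.0129, adjusted p = 0.0339) and rho = 0.46 (permutation p = 0.0878, adjusted p = 0.105). Their r was 0.69 among the 8 controls, 0.61 among the 7 heterozygous hearts and 0.70 without heterozygous arrays 1 and 7, the farthest from the median in Id3. Without heterozygous arrays 1 and 2, r was 0.41 for Id3 and Smad6, 0.53 for Id1 and Smad6 and 0.53 for Id1 and Id3. For Id1 and Bmp6 it was 0.30, for Id1 and Id2 0.27 and for Id2 and Id3 -0.06. Each r with arrays left out kept the group means taken over all 15 arrays, so the remaining hearts were not centred again.

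Id1 and Id3 had r = 0.58 (permutation p = 0.0226, adjusted p = 0.0339) and rho = 0.56 (permutation p = 0.0338, adjusted p = 0.105), with r of 0.37 among controls, 0.70 among heterozygous hearts and 0.51 without control array 3 and heterozygous array 2. Id1 and Bmp6 had r = 0.60 (permutation p = 0.0178, adjusted p = 0.0339) and rho = 0.47 (permutation p = 0.0797, adjusted p = 0.105), which fell to r = 0.31 without the same 2 arrays. Pairs with Id2 had lower values, a difference that was not tested: its r was 0.49 with Id1 (permutation p = 0.0639, adjusted p = 0.0767) and 0.29 with Id3 (permutation p = 0.302, adjusted p = 0.302), with rho of 0.48 (permutation p = 0.0744, adjusted p = 0.105) and 0.18 (permutation p = 0.524, adjusted p = 0.524). Within groups, r of Id1 and Id2 was 0.07 among controls and 0.82 among heterozygous hearts, and that difference was not tested. No rank correlation passed after adjustment.

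**Figure D4:**
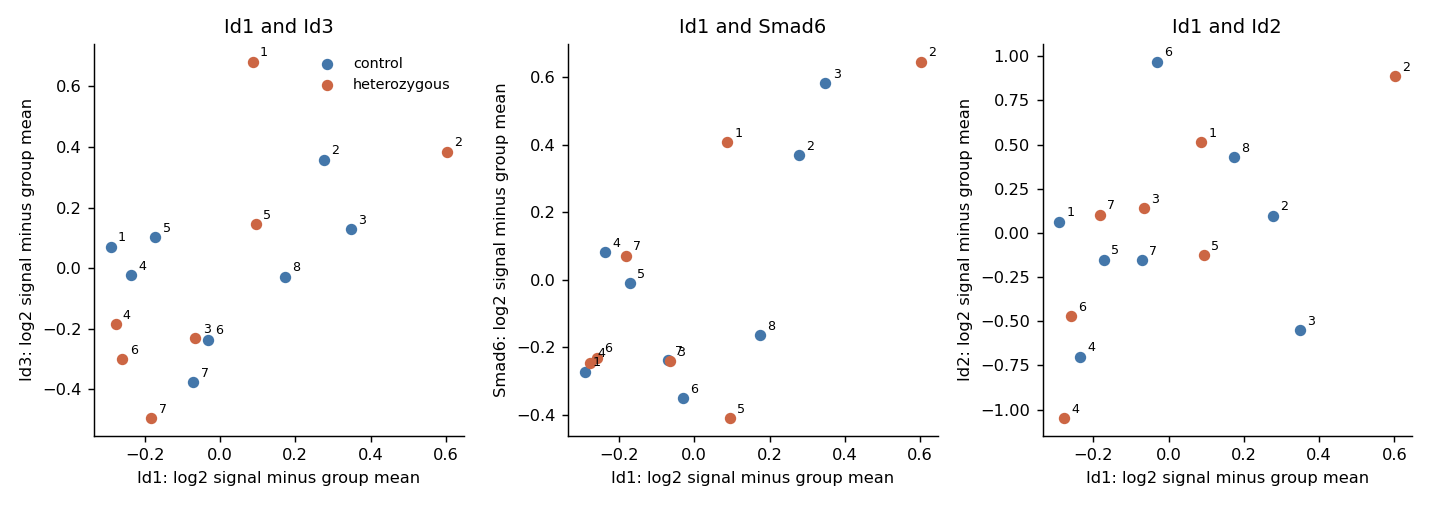
Log2 signal minus the group mean for Id1 (x axis) against Id3, Smad6 and Id2 (y axes) in each numbered heart, brightest probe sets. Heterozygous heart 2 lies at the far right of all panels, and the Pearson r of the 15 points is 0.58, 0.69 and 0.49.

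Over all 11631 other genes of mean log2 signal 6 or more, those whose group-centred signals were most like Id1 were Ufd1 (r = 0.83), Sertad1 (r = 0.82) and Npm1 (r = 0.80). Those most like Id2 were Ric3 (r = 0.83), Timm17b (r = 0.83) and Ccdc28b (r = 0.81). Those most like Id3 were Vps28 (r = 0.92), 3110040N11Rik (r = 0.87) and the matrix protein gene Mgp (r = 0.87). These are the highest of many values over 15 arrays that share array scaling, and are given as a description.

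Beyond the 10 members, 84 of 92 further genes of the pathway had a tested probe set, and 0 passed limma's adjusted test, beside 0.289% of 16627 named genes. At an unadjusted p under 0.05 there were 5 higher and 5 lower, 11.9% of the 84 beside 15.2% of all named genes. Their median difference was 0.06 (log2), beside -0.08 over all named genes. The smallest p belonged to Bambi, a pseudoreceptor without a kinase that dampens TGF-beta and BMP receptors. It ran from 285.3 to 477.1 units (median 366) in control and from 406.4 to 776.7 units (median 637.1) in heterozygous hearts. In Bambi 5 of 7 heterozygous hearts lay above every control, and the other 2, hearts 3 and 4, within the upper control range. The difference was 0.72 (log2; 95% interval 0.36 to 1.08), a 1.64-fold ratio with limma's adjusted p = 0.0955. Over 28 alternatives it stayed above 0, from 0.61 to 1.22, with adjusted p from 0.0288 to 1 and under 0.05 in 3 of them.

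By class, ligands had 3 of 10 genes above 0 and a median difference of -0.24 (log2). Gdf2, which encodes the circulating ligand BMP9, stood at 0.271 of control with a range of 2.9 to 119.4 units in heterozygous hearts against 30.8 to 258.5 units in control (limma's adjusted p = 0.280). Bmp8a and Bmp10, the latter an atrial ligand, stood at 0.625 and 0.569 of control on weak signals, with adjusted p of 0.481 and 0.548 in limma. Receptors had 7 of 10 above 0 with a median of 0.16, and 0 at an unadjusted p under 0.05. In their brightest probe sets the co-receptor genes Tgfbr3 and Eng stood at 1.18-fold and 1.11-fold and the type I receptor gene Acvr1 at 1.13-fold. Of these 3, 0 passed limma's threshold. Other tested probe sets lay at -0.19 for Tgfbr3, 0.25 for Eng and -0.42 to -0.02 for Acvr1 (log2), so Tgfbr3 and Acvr1 have no single direction.

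SMADs and their regulators had 6 of 11 above 0 with a median of 0.02. The common partner Smad4 stood at 1.19-fold, with 5 of 7 heterozygous hearts above every control (limma's adjusted p = 0.355). Ctdspl, a phosphatase gene, stood at 0.643 of control with limma's adjusted p = 0.262. Lemd3, which encodes the inner nuclear membrane protein MAN1 that binds receptor SMADs, stood at 1.16-fold with limma's adjusted p = 0.552. Its other tested probe set lay at -0.005 (log2). Antagonists and co-factors had 11 of 20 above 0 with a median of 0.10. Beside Bambi, the follistatin-like gene Fstl3 stood at 2.34-fold and the protease gene Tll1 at 2.12-fold, both on weak signals, at adjusted p of 0.285 and 0.271 in limma.

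Other BMP target genes had 10 of 17 above 0 with a median of 0.06. The homeobox genes Msx1 and Msx2, classical BMP targets, lay on the lower side, at 0.634 and 0.539 of control. Their other tested probe sets lay at -0.37 and -0.06 (log2). Msx1 ran from 219.4 to 510.4 units in control and from 164.2 to 256.3 units in heterozygous hearts, with 5 of 7 heterozygous hearts below every control (limma's adjusted p = 0.192). The T-box gene Tbx20 stood at 1.23-fold with limma's adjusted p = 0.322. Among 16 helix-loop-helix partners and related factors 10 were above 0, with a median of 0.06. Hand1 stood at 0.441 of control, Tcf21, a fibroblast and epicardial factor, at 1.25-fold and Elk3 at 1.24-fold, with adjusted p of 0.236, 0.326 and 0.395 in limma. The other tested probe set of Tcf21 lay on the opposite side, at -0.49 (log2).

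**Figure D5:**
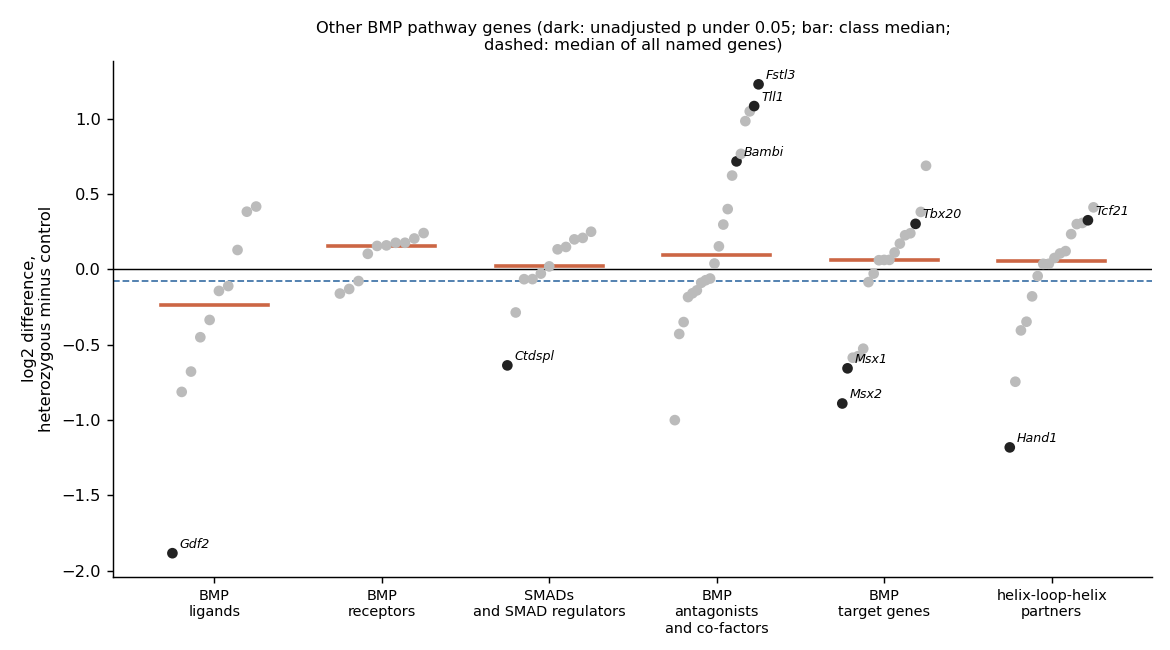
Log2 difference of heterozygous minus control (y axis) for the brightest probe set of each tested pathway gene other than the 10 members, by class (x axis), with orange bars for class medians. The 10 dark points have an unadjusted p under 0.05 and none passed after adjustment; the dashed line is the median of all named genes, -0.08.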

How the data were processed

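Total RNA from whole hearts was extracted with an RNeasy column kit, biotin-labelled and hybridised to Affymetrix arrays, as the labels' protocols say. Values were deposited as linear intensities, 1 per probe set, for which the submitters' processing notes name GCRMA with no version; a mean of 250.0 on every array after trimming 2% at each end shows that they were scaled to a common target, so how the probes were summarised is not given in the sources used here. Low signals scatter widely, and detection calls and scan dates were not used here. Symbols came from the platform annotation, in which 34958 probe sets name 1 gene.

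Signals were log2-transformed without a pseudocount, 64 control probe sets were left out, and limma 3.58.1 (R 4.3.3) tested genotype over 38870 probe sets, with no other term. The probe set with the highest mean stood for its gene. Correlations used 100000 permutations (scipy 1.17.1, Python 3.11.15) and figures matplotlib 3.10.9. On simulated arrays of this comparison with 38870 probe sets the test recovered 0% of changes of log2 0.5, 46% of those of 1 and 70% of those of 2, 50 of each. Members and gene lists were chosen with earlier results of these data known. Named were all members, the 3 genes of smallest p in each pathway class, and the 3 most like each Id gene. Cell type markers given by name were named after their values were seen. Alternatives were other filters, scalings, priors, weights, a floor, a replicate block, marker covariates, and left-out arrays.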

Additional observations from a re-analysis of the deposited data

Results flagged for a closer look

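In 40 groups of arrays, each tested member probe set in each genotype, 2 had an array set far apart from the rest by Dixon's ratio, where chance alone flags about 1 in 20. Id1 was 2098.4 units in heterozygous heart 2, and the next highest heterozygous heart had 1476.3 units. Id2 was 2.8 units in control heart 6 in its weakest probe set, 1453596_at, and the next lowest control had 36.1 units, while the same heart had the highest control signal in the brightest Id2 probe set, 213.4 units.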

How the results depend on the processing

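Low signal limits Bmp2 and the weakest probe sets of Bmpr1a and Id2, and shared annotation records keep probe sets of Bmpr1a from being independent. In their brightest probe sets Id2 and Bmp2 kept their direction under every alternative run, and none of the 10 genes passed in its brightest probe set. The dimmer Id2 probe sets did turn. The difference was -0.22 (log2) for 1422537_a_at with the erythroid and platelet covariate and -0.27 for 1453596_at without control array 6.

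Member probe sets past the threshold numbered 0, and 1 (Bmpr1a 1451729_at) with the filter at a log2 of 6, the trended and robust prior or the floor, and 0 to 1 with an array left out; other pathway genes numbered 0, and 1 (Bambi) under the same 3 settings. At an unadjusted p under 0.05 the count of member probe sets went from 4 to 2 with the atrial covariate. Those 2 were Id2 1422537_a_at and 1453596_at (limma's unadjusted p = 0.0296 and 0.0302), neither of them among the 4 of the main test. The value of 1453596_at includes control heart 6 at 2.8 units. The count was 0 with the erythroid and platelet covariate, and 2 to 4 with an array left out (2 without heterozygous array 1 or 5). Over the whole array the 98 calls became 192 with the filter at 6, 65 after centring, 65 after quantile normalization, 312 with the trended and robust prior, 287 with the floor, 0 with the atrial covariate, 18 with the endothelial, 0 with the erythroid and platelet and 155 with the fibroblast covariate, 60 without heterozygous arrays 1 and 2, and 17 to 150 with 1 array left out. The cause was not tested.

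In the other 8 genes the sign turned under some settings. The erythroid and platelet covariate, whose marker sums do not overlap between groups, gave -0.20 for Bmp4, -0.16 for Bmp6, -0.062 for Bmpr2, 0.33 for Smad1, -0.20 for Smad6, 0.15 for Id1 and -0.0064 for Id3. The atrial covariate gave -0.015 for Bmpr1a and -0.28 for Bmpr2, the endothelial covariate -0.092 for Bmp4 and the fibroblast covariate 0.062 for Id1. Centring gave 0.18 for Smad1 and 0.061 for Id1. The mean of probe sets gave -0.24 for Bmpr1a and -0.070 for Bmpr2. Without heterozygous arrays 1 and 2, Bmp6 was -0.074 and Smad1 0.045. With 1 array left out Smad1 ran from -0.13 to 0.065. The replicate numbers did not pair the hearts (correlations of deviations from -0.06 to 0.06), and with the replicate block over arrays 1 to 7 there was 1 call over the whole array, 0 of them a member, and Smad1 was at 0.0015.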
